A study of Mus musculus with 145 samples.

Results

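Among 51 mouse mammary tumours that had grown under BYL719, 22 carried a transposon insertion in Fbxw7 and 29 did not, and the comparison asked which other genes were hit more or less often when Fbxw7 was hit. A tumour was chosen by its reads: it counted as Fbxw7-hit when a site of at least 10 reads lay inside the deposited Fbxw7 region, with each position and strand kept only in the library that had the most reads there. The same rule was applied to every other gene region. The series holds 145 libraries in all, and the other 94, from an untreated group, served for a parallel comparison in which 21 were Fbxw7-hit. Untreated library 88 has the mouse and gland of library 58 in its title with the suffix R2, so the untreated libraries may stand for 93 tumours.

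All 145 libraries came from tumours of mice with 4 engineered parts: WAP-Cre, the silenced alleles LSL-PB and LSL-PIK3CA(H1047R), and ATP1. Cre was driven by the promoter of WAP, a milk protein gene of the late-pregnant mammary gland, and switched on both the piggyBac transposase and the PIK3CA(H1047R) oncogene, so the untreated tumours carried every allele that the resistant tumours carried. ATP1 is the mobilised transposon, and piggyBac inserts at the motif TTAA. Resistant tumours had received 30 mg/kg BYL719 (alpelisib, an inhibitor of PI3K alpha) daily from a volume of 250 mm3 and had still grown over at least 3 consecutive measurements within 3 weeks. The age of the mice is not used here, as no label gives it. Titles placed the 51 resistant tumours in 25 mice, of which 17 had at least 1 Fbxw7-hit tumour and 13 had both a hit and an unhit tumour. Tumours of 1 mouse are not independent samples, and the exact tests over tumours do not take the shared mouse into account. Within mice, that is with the mouse as the stratum in place of site number, no gene was called either.

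Fbxw7 encodes an F-box protein, the part of an SCF-type ubiquitin ligase that recognises its substrates. The ligase, built on the scaffold CUL1 with SKP1 and RBX1, marks phosphorylated growth regulators such as cyclin E, MYC, NOTCH and JUN for destruction by the proteasome, and the gene is known as a tumour suppressor in several tissues. A transposon can disrupt a gene from many positions and either orientation, whereas activation depends on where the transposon's promoter points.

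The deposited Fbxw7 region spans chromosome 3 from 84813577 to 84979198 in mm10 (165.6 kb, plus strand). RefSeq (GRCm38.p6) annotates 3 transcription starts in it, at 84815577, 84864145 and 84952211, so the second and the third lie 48.6 and 136.6 kb after the first. The resistant tumours held 59 distinct Fbxw7 sites. Exons, introns and UTRs were not assigned, as no gene model was used. The 8 bases around the site, read on the strand of the insertion, are shown for the 6 tumours in which the most-read Fbxw7 site took the largest share of the tumour's own reads. A further site of tumour 10 is shown because it was the only 1 of the 59 not at TTAA. Capitals mark the 4 bases on the 5′ side of the insertion point, where TTAA is found at the other 58 sites, and tumours are numbered within their group.
Tumour 50, minus strand, 84839424: TTAAactt
Tumour 10, plus strand, 84964751: TTAAagta
Tumour 17, plus strand, 84813606: TTAAgggg
Tumour 33, minus strand, 84834859: TTAAagaa
Tumour 14, plus strand, 84967751: TTAAatac
Tumour 8, minus strand, 84865462: TTAAaaac
Tumour 10, minus strand, 84874007: TAAAgaag

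The reads behind the hits differed widely between tumours. The most-read Fbxw7 site of a hit tumour had from 13 to 12258 reads, with a median of 186.5, and took from 0.00724% to 3.07% of the reads kept in that tumour, with a median of 0.152%. In 4 tumours the site ranked among the 10 most-read sites: it was first in tumour 10 (4075 reads, 2.86%), second in tumour 17 (144 reads, 2.14%), of rank 4 in tumour 50 (12258 reads, 3.07%) and of rank 10 in tumour 14 (1716 reads, 1.01%). The tumour 17 site lay at -1.97 kb from the first annotated start, so before it, at the edge of the deposited region. In 14 of the 22 tumours the most-read Fbxw7 site ranked below 100. Most Fbxw7 hits were minor sites by reads, and a read count after PCR is not a count of cells.

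The threshold of 10 reads cut through a continuous range. The hit tumours nearest to it had most-read sites of 13 reads (tumour 15), 16 reads (tumour 44) and 22 reads (tumour 9). Among the 29 unhit tumours, 16 had no read in the region and 13 had 1 to 9 reads at their most-read position. The nearest of these, tumour 22, had a site of 9 reads that was its own. The authors' deposited table, made by rules not given in the sources used here, lists an insertion in Fbxw7 in 31 resistant tumours (60.78%) and 34 untreated tumours (36.17%). With a threshold of 5 reads, 23 resistant tumours were Fbxw7-hit, and with 50 reads 16 were.

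Hit tumours carried from 1 to 16 Fbxw7 sites. A single site was found in 11 tumours and more than 1 in the other 11, with 16 sites in tumour 10 and 7 in tumour 33. The deposited diversity value, a whole number per site that the file headers do not define, was 1 at 33 of the 59 sites, and in 12 of the 22 tumours no Fbxw7 site had a value above 1. It reached 128 at the most-read site of tumour 10.

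Orientation was even among most-read sites, and in resistant tumours its counts differed before and after the third annotated start. Orientation here is the deposited strand of the site set against the strand of the gene. How that strand relates to the direction of the transposon's promoter was not established. The most-read site lay in the orientation of the gene in 11 of 22 tumours (50%, exact Clopper-Pearson 95% interval 28.2% to 71.8%, exact binomial p = 1, two-sided). Of all 59 sites, 20 lay in that orientation and 39 against it. Before the third annotated start, 8 of 44 sites had the orientation of the gene, and after it 12 of 15 did. The 44 include the site of tumour 17, which lies before the first start. By most-read sites alone, the counts were 4 of 14 before and 7 of 8 after. The split by position was chosen after the sites were seen and is given as a description with no test, because sites of 1 tumour share their source. Without tumours 10 and 33, which held the most sites, the counts were 7 of 28 before and 7 of 8 after. In untreated tumours, whose sites played no part in choosing the split, 6 of 14 sites before the third start and 7 of 12 after it had the orientation of the gene. The difference between the groups was not tested.

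**Figure D1:**
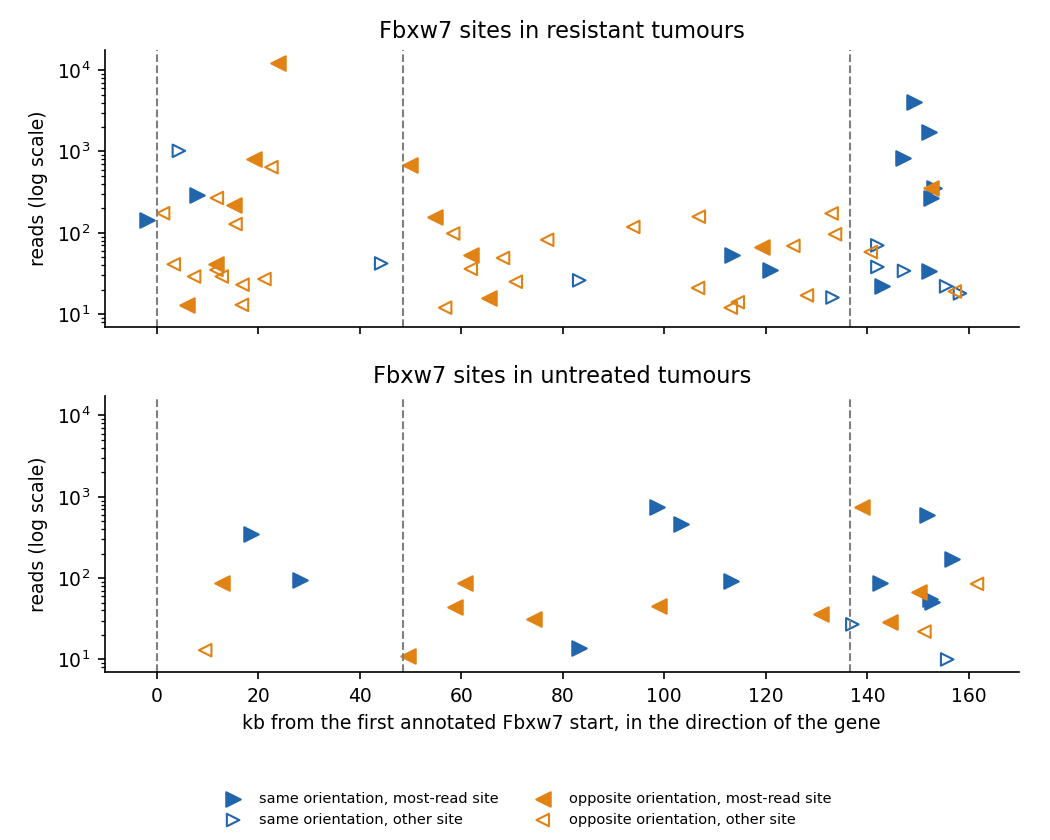
Reads (log scale) of each Fbxw7 insertion site against its distance in kb from the first annotated start, in resistant and untreated tumours; arrowheads give the orientation relative to the gene, filled symbols the most-read site of a tumour, and dashed lines the 3 annotated starts. By deposited strand, in resistant tumours, 36 of 44 sites before the third start lie against the gene. After it, 12 of 15 lie with the gene.

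The number of insertion sites differed so much between the groups that it had to enter every comparison. Fbxw7-hit tumours had 19 to 3320 sites of at least 10 reads (median 802), and unhit tumours had 0 to 1102 (median 370). The ranges overlap, but 7 hit tumours lay above every unhit tumour and 2 unhit tumours lay below every hit tumour. A tumour with more sites is more likely to meet the rule, so this difference was not tested. The design cannot tell the selection apart from other sources of the difference. Total reads were 25065 to 1604365 in hit and 51 to 1008751 in unhit tumours. Tumour 42, unhit, had 51 reads and no site, and tumours 34, 50 and 51 had 16, 19 and 31 sites at 385224 reads or more, few for their depth. Sites were called only from reads kept in the library, which were 792090, 398965 and 53208 in these 3 tumours. Total reads can overstate the depth behind the calls, as in tumour 21, which kept 75573 of 226989 reads.

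Tumours were therefore compared within 4 strata ranked by number of sites. The strata held 3 hit and 10 unhit tumours (0 to 253 sites), 4 and 9 (275 to 473 sites), 5 and 8 (494 to 910 sites), and 10 and 2 (1001 to 3320 sites). In the last stratum the balance remained poor, as the 2 unhit tumours had 1033 and 1102 sites and the hit tumours a median of 2191.5.

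**Figure D2:**
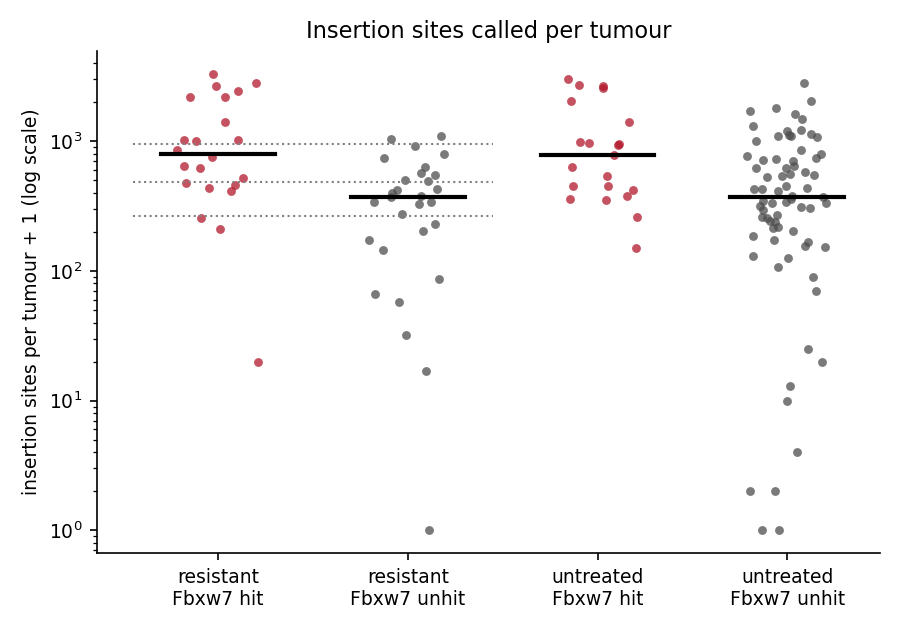
Insertion sites of at least 10 reads per tumour, plus 1, on a log scale, for Fbxw7-hit (red) and unhit (grey) tumours of both groups; each point is a tumour, black bars are medians and dotted lines separate the 4 strata of the resistant tumours. The hit medians (802 resistant, 775 untreated) lie above the unhit medians (370 and 369).

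No other gene passed the test for a difference between Fbxw7-hit and unhit tumours. Sites fell in 7119 gene regions, and the 760 that were hit in at least 5 and unhit in at least 5 resistant tumours were tested, leaving out Arfip1 (chromosome 3, 84496064 to 85889518), whose region contains Fbxw7. By the exact Cochran-Mantel-Haenszel test within strata with Benjamini-Hochberg adjustment, 0 of 760 genes (0%) had an adjusted p below 0.05, and the adjusted p was 1 for each. At an unadjusted p below 0.05, 13 genes (1.71%) were hit more often and 1 gene (0.132%) less often in Fbxw7-hit tumours. Firth logistic regression on the log10 number of sites also gave 0 genes, with 22 below an unadjusted p of 0.05. The design could have called only large effects: for 82 of the 760 genes the most extreme outcome would have passed the adjustment as the top gene.

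The differences over the whole set of genes depended on whether site number was taken into account. Before strata, 674 of 760 genes had a higher share in Fbxw7-hit than in unhit tumours, with a median difference of 11.3 percentage points. Within strata 449 genes (59.1%) had an odds ratio above 1, 310 had one below 1, and the median difference was 2.61 points. With Firth regression 362 lay above 1 and 398 below, with a median of -0.52 points. Fisher's exact test with no strata gave 110 genes (14.5%) an unadjusted p below 0.05, all of them higher in Fbxw7-hit tumours, and again no gene (0%) with an adjusted p below 0.05 (smallest 0.0954).

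**Figure D3:**
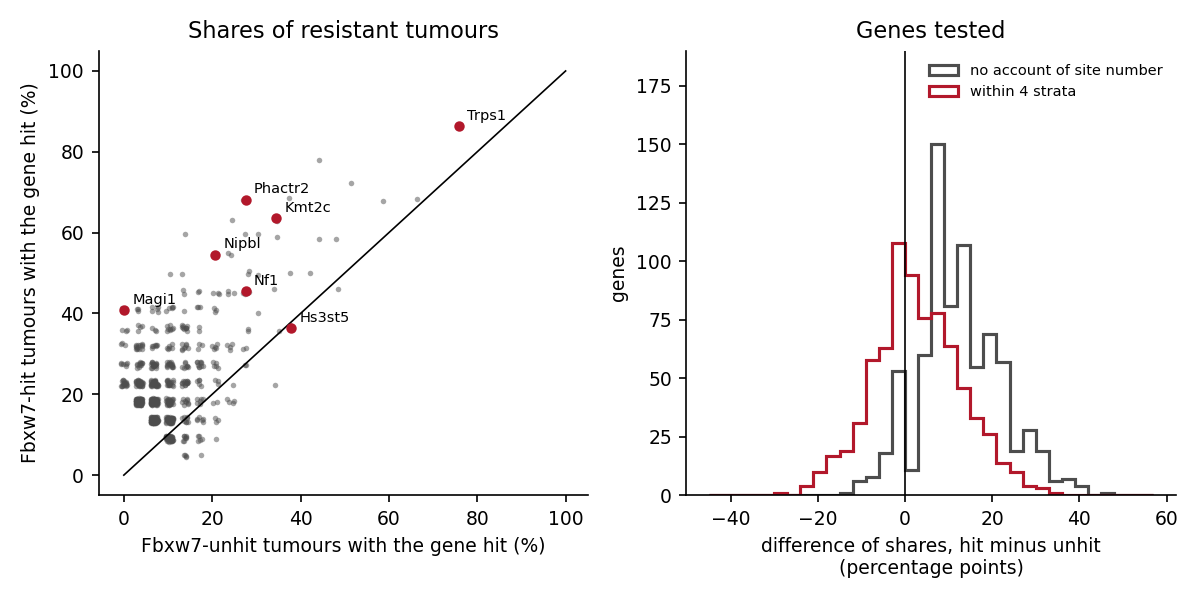
Left, percent of Fbxw7-hit against percent of unhit resistant tumours with a hit in each of 760 genes, each point a gene slightly jittered, with the line of equal shares; right, histogram of the difference of shares in percentage points with no account of site number (grey) and within 4 strata (red). The median difference falls from 11.3 to 2.61 points within strata.

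The genes with the smallest p on the higher side included Magi1, Cep112, Adgrl2, Atrnl1, Nkain3, Khdrbs3, Phactr2, Mme and Arhgap42. Magi1, a scaffold of cell junctions (chromosome 6, 93675453 to 94285917), was hit in 9 of 22 Fbxw7-hit tumours (40.9%) and in 0 of 29 unhit tumours (0%). These 9 tumours came from 7 mice, 5 of them lay in the stratum with the most sites, and their most-read Magi1 sites had 14 to 621 reads (median 31). The odds ratio within strata had no finite estimate and a lower 95% bound of 1.99 (exact p = 0.00314, adjusted p = 1).

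Also hit in 0 of 29 unhit tumours were, among others, Cep112, a centrosomal protein gene (7 of 22 hit tumours, 13 to 4088 reads), Adgrl2, an adhesion G-protein-coupled receptor gene (8 of 22, 20 to 687 reads), Khdrbs3, which encodes an RNA-binding splicing regulator (6 of 22, 16 to 463 reads), and Arhgap42, a GTPase-activating protein gene (7 of 22, 21 to 107 reads). Their lower 95% bounds of the odds ratio were 1.35, 1.30, 1.20 and 0.80, and their exact p-values ran from 0.0116 to 0.0408. Arhgap42 hits lay only in the 2 upper strata. Hits in 0 of 29 unhit tumours were not particular to these genes. Zfp148 (8 of 22 hit tumours), Uhrf1bp1l (7 of 22) and Akap13 (6 of 22) were further examples among the genes tested. So were Hunk (6 of 22), Ptk2 (6 of 22) and Cask (5 of 22). The number of tested genes with hits in 0 of 29 was not counted. A gene was tested only if hit in at least 5 tumours. Genes with 0 of 29 met that minimum through Fbxw7-hit tumours alone. Fbxw7-hit tumours had more sites (median 802 against 370). How often site number alone would give 0 of 29 was not tested. With the mouse as the unit, 17 mice hit and 8 unhit, the exact p was 0.118 for Magi1, 0.132 for Cep112, 0.257 for Adgrl2, 0.271 for Khdrbs3 and 0.469 for Arhgap42. In tumours of the title form Tgtumor alone the Magi1 difference was 22.4 percentage points (exact p = 0.227), against 35.1 in all, and at a threshold of 20 reads its exact p was 0.0526.

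Phactr2, a regulator of protein phosphatase 1 and actin on chromosome 10, was hit in 15 of 22 Fbxw7-hit and 8 of 29 unhit tumours (odds ratio 5.89, 95% interval 0.93 to 33.7). Its most-read sites had 19 to 628 reads in hit and 11 to 1054 reads in unhit tumours, which overlap. Atrnl1, an attractin-like gene, and Nkain3, whose product interacts with the sodium pump, were each hit in 9 hit tumours and 1 unhit tumour, with odds ratios of 19.5 and 7.28. Mme, which encodes the membrane peptidase neprilysin and lies on chromosome 3 like Fbxw7, was hit in 5 and 1. None of these passed the adjustment. With the mouse as the unit the exact p was 0.568 for Atrnl1, 0.342 for Phactr2, 0.271 for Mme and 0.0422 for Nkain3.

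On the lower side, 10 genes with the smallest p were examined. Sh3rf3, an SH3-domain ubiquitin ligase gene (chromosome 10, 58811359 to 59138916), was hit in 3 of 22 Fbxw7-hit and 5 of 29 unhit tumours, shares of 13.6% and 17.2%. All 3 hit tumours lay in the uppermost stratum, where both unhit tumours also had a Sh3rf3 site, and 3 of 8 unhit but 0 of 5 hit tumours of the third stratum had one. The odds ratio was 0 with an upper 95% bound of 1.08 (exact p = 0.0408, adjusted p = 1). Adgrb3, an adhesion receptor gene of neurons, had the same counts of 3 and 5 tumours (upper bound 1.19).

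Hs3st5, a heparan sulfate sulfotransferase gene, was hit in 8 Fbxw7-hit and 11 unhit tumours, with 1 of 12 hit and 9 of 27 unhit tumours outside the uppermost stratum (odds ratio 0.12, 95% interval 0.0028 to 1.17). Elmo1, an activator of the GTPase RAC, was hit in 3 and 6 tumours (odds ratio 0.10), and Map7, a microtubule-binding protein gene, in 4 and 7 (0.20). Itpr1, the inositol trisphosphate receptor gene, and Pdlim5, a cytoskeletal adaptor gene, were each hit in 1 and 4 tumours. Zcchc7, an RNA-surveillance gene, was hit in 2 and 3, Slc25a13, the gene of the mitochondrial carrier citrin, in 2 and 4, and Frmpd4, a synaptic scaffold gene, in 6 and 5. Frmpd4 had a higher raw share in Fbxw7-hit tumours and an odds ratio of 0 within strata. All 95% intervals on this side included 1. Sh3rf3, Hs3st5 and Map7 lie on chromosome 10, the donor chromosome of the transposon, as does Phactr2 on the higher side. Sites on chromosome 10 made up a mean of 18.5% of all sites in Fbxw7-hit and 22.1% in unhit tumours. The share of the tested genes that lie on it was not counted.

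A further 8 genes were Cul1, added as a partner of Fbxw7, and genes called recurrent here, which were taken from earlier results of these data. They are not the genes hit in most tumours under the present rule. Pcdh15, for example, was hit in 15 Fbxw7-hit and 19 unhit tumours, and Zfx, of the 8, in 8 and 3. None of the 8 passed the test in either direction, and their intervals were wide. Trps1, a GATA-type repressor of the mammary epithelium, was hit in 19 of 22 Fbxw7-hit (86.4%) and 22 of 29 unhit tumours (75.9%). Its most-read sites had 21 to 6299 reads (median 491) in hit and 13 to 8157 reads (median 376.5) in unhit tumours. The odds ratio was 0.72 (95% interval 0.085 to 6.58, exact p = 1) and the difference within strata -3.92 points. With positions that had reads in more than 1 library dropped, which left 16 Fbxw7-hit tumours, it was -29.4 points (exact p = 0.0207, adjusted p = 1).

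Kmt2c, a histone methyltransferase of enhancers, was hit in 14 Fbxw7-hit and 10 unhit tumours (63.6% and 34.5%). This was the largest raw difference after Nipbl among the recurrent genes and Cul1. The hits followed the strata: 0 of 13 tumours in the first, 3 of 13 in the second (1 hit, 2 unhit), 9 of 13 in the third (3 and 6), and all 12 in the fourth (10 and 2). Within strata the odds ratio was 0.72 (95% interval 0.074 to 6.13, exact p = 1), so the raw difference of 29.2 percentage points became -3.92 points. Trps1 was likewise hit in all 12 tumours of the fourth stratum, which therefore carry no information on either gene.

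Nf1, the RAS GTPase-activating protein gene whose loss sustains RAS signalling, was hit in 10 Fbxw7-hit and 8 unhit tumours (45.5% and 27.6%). Its most-read sites had 11 to 11401 reads (median 84.5) and 10 to 834 reads (median 88.5). The odds ratio within strata was 0.73 (95% interval 0.10 to 3.83, exact p = 1). The interval leaves room for a several-fold difference either way.

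Zfx, an X-linked zinc-finger activator gene, was hit in 8 and 3 tumours (odds ratio 2.98, 95% interval 0.44 to 29.4, exact p = 0.227). Nipbl, the loader of cohesin onto DNA, was hit in 12 and 6 (2.02, 0.40 to 10.3), and Runx1, a mammary lineage transcription factor gene, in 7 and 6 (1.51, 0.29 to 7.67). Zbtb20, a zinc-finger repressor gene, was hit in 11 and 12 tumours (0.46, 0.077 to 2.58). Cul1, which encodes the scaffold of the Fbxw7 ligase itself, was hit in 3 Fbxw7-hit tumours and 4 unhit tumours (0.62, 0.063 to 6.30), so hits in both genes did occur in the same tumour.

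**Figure D4:**
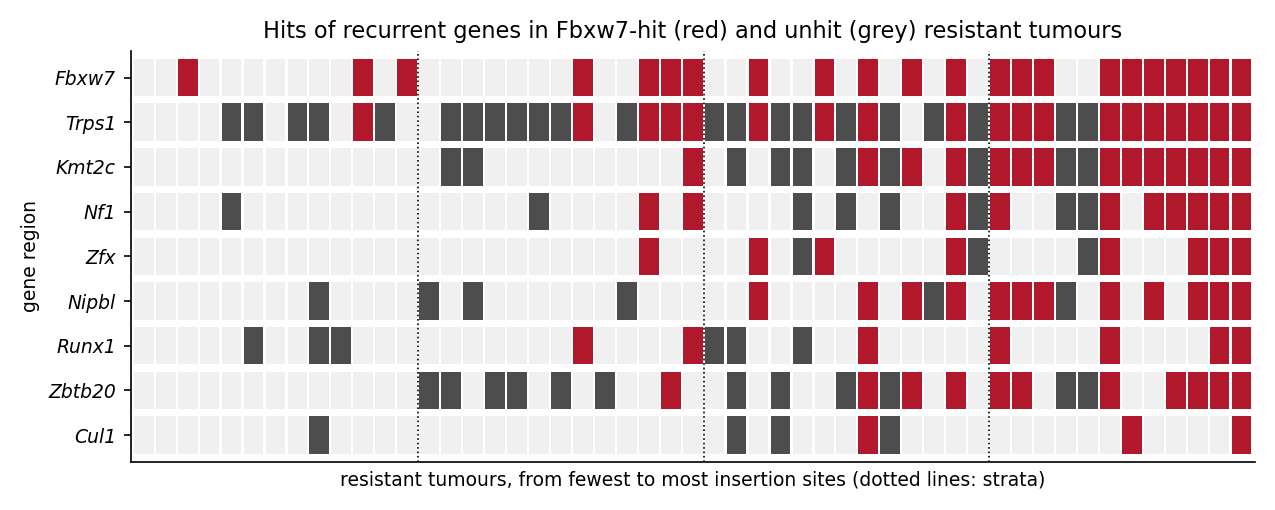
Hits of Fbxw7 and 8 other genes, the recurrent genes and Cul1 (rows), in the 51 resistant tumours (columns, ordered from fewest to most insertion sites). Red marks a hit in an Fbxw7-hit tumour, grey a hit in an unhit tumour, and dotted lines separate the strata. All 12 tumours of the stratum with the most sites have Trps1 and Kmt2c hits, whether or not Fbxw7 is hit.

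Where Fbxw7 and a recurrent gene were hit in the same tumour, either could be the more-read. The Trps1 site had more reads than the Fbxw7 site in 13 of 19 such tumours, the Kmt2c site in 7 of 14, the Nf1 site in 3 of 10 and the Nipbl site in 2 of 12. In tumour 48 a Kmt2c site of 47690 reads, second of its tumour, stood beside an Fbxw7 site of 836 reads at rank 106. In tumour 8 an Nf1 site of 11401 reads ranked first and the Fbxw7 site of 688 reads ranked 19th. In tumour 10 the Fbxw7 site ranked first with 4075 reads and an Nf1 site of 2251 reads had rank 4. These counts do not show whether both insertions lay in the same cells.

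Genes of the pathways around Fbxw7 were rarely testable. Of 7 measured members of the ligase and its partners, 4 were hit in any resistant tumour and only Cul1 was tested. Of 24 measured Fbxw7 substrates, 13 were hit and only Med13l, a subunit of the Mediator kinase module, was tested, with 3 Fbxw7-hit and 3 unhit tumours (odds ratio 0.46). No member of any list below passed the adjusted test, against 0% of all 760 genes. Where a list's median difference within strata is given, it stands against the 2.61 points of all genes tested. A list's count of odds ratios above 1 stands against 449 of all 760 genes (59.1%).

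Genes that restrain RAS-MAPK signalling had 5 tested members, 3 with an odds ratio above 1, and a median of 7.70 points. Spred2, which recruits neurofibromin to the membrane, was hit in 8 Fbxw7-hit tumours and 1 unhit tumour (odds ratio 15.9, 95% interval 0.81 to 694, exact p = 0.0564). Rasa1, another RAS GTPase-activating protein gene, was hit in 8 and 3 (2.49), and Spred1 in 6 and 2 (2.23). No RAS-MAPK activator was tested, although 13 were hit in some tumour.

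Of the brakes of PI3K, AKT and mTOR signalling, Inpp4b, a phosphoinositide phosphatase gene, was hit in 8 and 3 tumours (odds ratio 3.43). Of the activators, Pik3cb, a PI3K catalytic subunit gene, was hit in 4 and 1 tumours (1.73). Of 4 receptor tyrosine kinase genes tested, Erbb4 was hit in 7 and 1 (6.71), Ntrk3 in 2 and 3 (0.31) and Epha5 in 6 and 4 (0.99), with a median of 0.52 points over the 4.

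NOTCH, WNT and Hippo genes had 12 tested members, 8 of them with an odds ratio above 1 and a median of 4.63 points. Nf2, which encodes merlin, was hit in 4 and 1 tumours (8.72), Rnf43, a ubiquitin ligase that removes WNT receptors, in 6 and 1 (3.59), and Tnik, a kinase of WNT signalling, in 9 and 3 (2.92). TGF-beta and SMAD genes had 3 (median 8.22 points). Tgfbr2, the type II receptor gene, was hit in 5 Fbxw7-hit tumours and no unhit tumour (lower 95% bound 0.32), Smad3 in 4 and 1 (3.10) and Acvr2a in 3 and 2 (0.82).

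Cohesin genes had 2 tested members, Nipbl and Stag1 (3 and 3 tumours, odds ratio 0.78), with a median of 6.20 points. Among 6 chromatin regulators, with a median of -1.31 points, Kdm6a, a histone demethylase gene, was hit in 5 and 2 tumours (2.93) and Arid2 in 5 and 3 (0.35). Among 6 mammary lineage transcription factors, with a median of -0.46 points, Nfia was hit in 9 and 3 (3.02). Tnrc6b, the only microRNA silencing gene tested, was hit in 6 and 3 (1.33, 3.79 points). No cell cycle or p53 gene was tested, with 10 hit in some tumour, and no marker gene of other cell types was tested, with 3 hit in some tumour.

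Adhesion and polarity genes had 14 tested members, 8 above and 6 below 1, with a median of 2.09 points. Beside Magi1, Pard3b was hit in 12 and 7 tumours (3.19) and Ctnna2 in 5 and 6 (0.21). Of 19 long neural and fragile-site genes tested, 14 had an odds ratio above 1, and the median was 9.01 points. Dab1 was hit in 8 Fbxw7-hit tumours and no unhit tumour (lower 95% bound 0.64), and Csmd3 in 8 and 1 (11.3). Whether the differences of long genes follow the site numbers left unbalanced within strata was not tested.

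Neighbours of Fbxw7 on chromosome 3 were hit in few resistant tumours. Their regions are shorter, from 5.46 to 111 kb against 165.6 kb for Fbxw7, and hits per kb were not compared. Fhdc1, Tigd4 and Tmem154, before it, were hit in none. After it, 1700036G14Rik was hit in 1 Fbxw7-hit tumour, and Gatb, a mitochondrial translation gene, and the next region, which has no RefSeq match, were each hit in 2 Fbxw7-hit tumours and 1 unhit tumour.

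None of 4 other features of the tumours passed the test of a difference, by permutation within strata with Benjamini-Hochberg adjustment over the 4. Titles had the form Tgtumor in 17 of 22 Fbxw7-hit tumours (77.3%) and 18 of 29 unhit tumours (62.1%), and the form Mouse in the rest (permutation p = 0.721, adjusted p = 0.721). What the form stands for is not given. The tumour lay in an anterior gland, read from the title, in 14 of 22 (63.6%) and 24 of 29 (82.8%), with p = 0.152 by permutation and an adjusted p of 0.609. Sites on chromosome 10 made up 18.5% ± 6.4 (SD, n = 22) and 22.1% ± 4.69 (SD, n = 28) of all sites (permutation p = 0.533, adjusted p = 0.710). The most-read site outside Fbxw7 took 9.24% ± 14.003 (SD, n = 22) and 9.70% ± 13.2 (SD, n = 29) of the reads (permutation p = 0.468, adjusted p = 0.710). Within the 35 tumours of the form Tgtumor, 17 hit and 18 unhit, 0 of 594 genes had an adjusted p below 0.05, and 11 had an unadjusted one. The 16 tumours of the form Mouse held 5 hit tumours and were not compared alone.

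In untreated tumours the same comparison also called no gene. The 21 Fbxw7-hit tumours had 148 to 3017 sites (median 775) and the 73 unhit libraries 0 to 2831 (median 369). Libraries 58 and 88 are both unhit, with 1 site and 0 sites. Of 1468 genes tested, 0 (0%) had an adjusted p below 0.05 by the exact Cochran-Mantel-Haenszel test (smallest 0.829; also 0 without library 88, which leaves 72 unhit), while 67 (4.56%) were higher and 6 (0.409%) lower at an unadjusted p below 0.05.

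Odds ratios in untreated tumours are given beside those of the genes named above. Magi1 was hit in 6 of 21 and 10 of 73 (odds ratio 1.46), Adgrl2 in 4 and 9 (0.98) and Atrnl1 in 3 and 10 (0.63). Of the 10 genes nearest to a higher share in resistant tumours, 9 were tested in untreated tumours and 6 had an odds ratio above 1 there. Of the 10 nearest to a lower share, 8 were tested and 1 had an odds ratio below 1. These counts stand against all 1468 genes tested in untreated tumours, of which 887 had an odds ratio above 1 and 581 below 1. Hs3st5 was hit in 13 of 21 and 23 of 73 (2.63) and Map7 in 9 and 11 (2.75), both on the opposite side of 1 from resistant tumours. Among recurrent genes, Trps1 was hit in 20 and 53 (3.41), Kmt2c in 6 and 18 (0.72), Nf1 in 1 and 7 (0.39) and Runx1 in 7 and 9 (3.12).

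The difference between resistant and untreated tumours was tested in 619 genes by the interaction term of a Firth logistic regression with group and log10 number of sites. Of these, 0 (0%) had an adjusted p below 0.05 (smallest 0.896) and 32 (5.17%) had an unadjusted p below 0.05. The gene with the smallest p was Adgrb3, hit in 3 and 5 resistant and in 5 and 5 untreated tumours, with the Fbxw7 odds ratio lower in resistant tumours by 6.25 on the log2 scale (p = 0.00226, adjusted p = 0.896). It was named after its value was seen in this test, and its estimate rests on 8 resistant tumours.

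**Figure D5:**
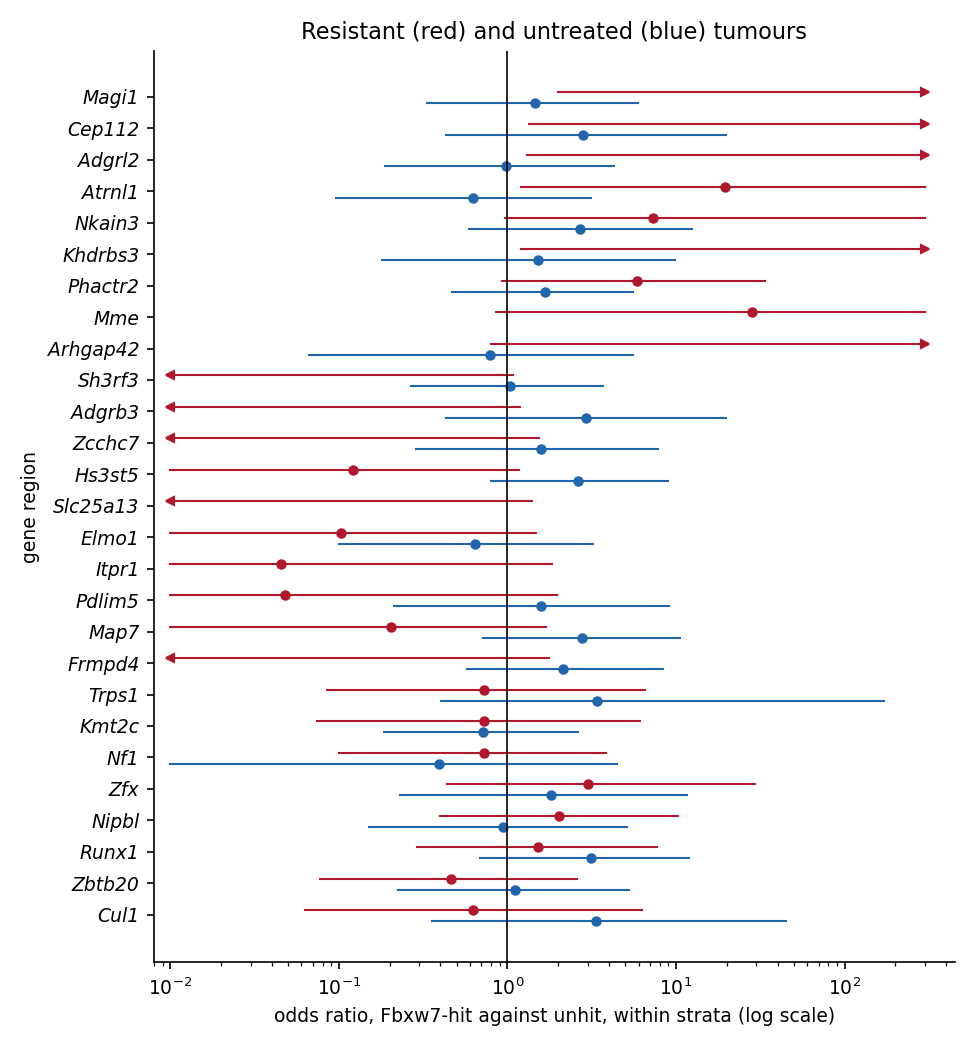
Odds ratios (log scale) of a gene hit in Fbxw7-hit against unhit tumours within strata, with exact 95% intervals. Shown are genes nearest to an association in resistant tumours, the recurrent genes and Cul1. Red marks resistant and blue untreated tumours. Arrowheads mark estimates of 0 or infinity and intervals are clipped at the axis. The red intervals of Magi1, Cep112, Adgrl2, Atrnl1 and Khdrbs3 lie above 1, before any adjustment.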

How the data were processed

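Transposon insertions were mapped by splinkerette PCR from the transposon's 5′ arm, in 4 pools, per the labels' protocols. The genomic DNA came from 51 resistant tumours and, as 94 libraries, from untreated tumours. Per the submitters' processing notes the genome was mm10; aligner and site caller are not given in the sources used here. Deposited by the authors, a site table holds whole-number read counts per site and library, with no scaling as far as the values show, and a second whole number per site, here the diversity value, that the file headers do not define. A table of the authors gives, per region, the number of tumours and the percent of tumours with an insertion. A further 580 per-library columns were not used. ATAC-seq, named in the title of the series, is not what its design text describes, which is insertion mapping.

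Groups came from the treatment labels and mice from the titles, where 1 title was read as the mouse and gland its digits fit. The titles name 25 resistant and 23 untreated mice. Gene regions (13391) came from the authors' table and symbols from their identifiers (12384 found in RefSeq, GRCm38.p6). The 8-base contexts equalled the RefSeq promoter sequence at all 1014 sites that lie in a promoter window. Positions tied for most reads (551, of which 12 had at least 10 reads) were kept in no library.

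Hits were compared by the exact Cochran-Mantel-Haenszel test, two-sided, in 4 strata of site number, with Benjamini-Hochberg adjustment over all genes tested and a threshold of 0.05. The difference of shares within strata is the Mantel-Haenszel weighted one, in percentage points, hit minus unhit. Intervals cover counting of tumours only, as reads made by PCR carry no molecular identifiers and do not count molecules. Features were permuted within strata with 100000 resamples. The tests were checked on simulated hits with no effect and with a large effect only, so their sensitivity to smaller effects was not checked. Calculations used Python 3.11.15 with NumPy 2.4.6, SciPy 1.17.1 and pandas 2.3.3.

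The members and gene lists were chosen with earlier results of these data known. Genes named are all those past the adjusted threshold (none), the 10 smallest p on each side, and 8 genes made up of the recurrent genes and Cul1. Also named are up to 3 members of smallest p of each list and the 3 nearest regions on either side of Fbxw7. A few of the genes under this rule are not reported here. Alternatives changed the strata, the test, the read threshold, the treatment of shared positions, the minimum of tumours hit, the unit (mouse) and the libraries used.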

Additional observations from a re-analysis of the deposited data

How the results depend on the processing

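The count of genes with an adjusted p below 0.05 was 0 under each of the 21 alternatives run in resistant tumours, the 17 in untreated tumours and the 2 of the interaction, 7 of the resistant and untreated ones being chosen after seeing the data (a diversity value of at least 2 and the mouse as the stratum in each group, the shared range of site numbers, site numbers without Fbxw7, and untreated tumours without library 88). Unadjusted counts below 0.05 in resistant tumours ran from 1 to 110. With a diversity value of at least 2, only 10 tumours were Fbxw7-hit and 27 genes were tested. In the 42 tumours of the shared range (15 hit, 27 unhit) 306 genes were tested and 8 had an unadjusted p below 0.05. With the mouse as the unit, 17 mice were hit and 8 unhit, and 5 of 640 genes did. With the mouse as the stratum, so that site number was not taken into account, 61 of 760 did, all higher in Fbxw7-hit tumours (smallest adjusted p = 0.578), and 62 of 1468 untreated. Without the library of 51 reads, the only resistant one under the planned minimum, 11 did.

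Directions of several named genes turned, none of them called in either setting and the cause not tested. With no account of site number the differences of shares were 10.03 points for Frmpd4, 10.5 for Trps1, 29.2 for Kmt2c, 17.9 for Nf1 and 8.62 for Zbtb20. At 5 reads Kmt2c had 2.19, and at 20 reads Cul1 had 0.29. At 50 reads Sh3rf3 had 4.04, Hs3st5 3.10, Frmpd4 33.6, Kmt2c 22.6, Nf1 4.49, Runx1 -0.95 and Cul1 11.2. With the 300 most-read sites Phactr2 had -10.7, Hs3st5 1.40, Kmt2c 11.2, Runx1 -10.4 and Zbtb20 8.71. With shared positions kept Trps1 had 2.35, and with them dropped Kmt2c had 4.66 and Nf1 16.6. With the mouse as the unit Map7 had 1.40, Kmt2c 13.97, Nf1 0.28 and Zbtb20 0.28. Within mice Zcchc7 had 4.30, Slc25a13 1.08, Itpr1 4.30, Map7 4.30, Frmpd4 15.1, Trps1 6.45, Kmt2c 12.9, Nf1 9.68, Runx1 -5.38, Zbtb20 9.68 and Cul1 2.15. With a diversity value of at least 2 Trps1 had 2.22, Nf1 21.7 and Zbtb20 9.27.

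With no strata the difference in the Tgtumor form was 15.2 points (main -5.48) and in the most-read site's share of reads -0.46 (main 2.96), and the permutation p of the chromosome 10 share was 0.0261 (adjusted p = 0.104). Among all distinct Fbxw7 sites 33.9% had the orientation of the gene by deposited strand (exact binomial p = 0.0183). The share was 32.6% without tumour 10 (exact binomial p = 0.0315) and 38.9% without tumours 10 and 33 (exact binomial p = 0.243). The last 2 were added after the data were seen, and sites of 1 tumour are not independent. Replicate numbers follow accession order and pair no samples. Only 2 unhit tumours reached the stratum with the most sites.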

Other observations

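In untreated tumours the 3 genes with the smallest p were Mcph1, which encodes the DNA-damage protein microcephalin (7 of 21 Fbxw7-hit and 1 of 73 unhit tumours, exact Cochran-Mantel-Haenszel p = 0.000651), Satb1, a chromatin organiser gene (5 and 0), and Tmprss15, the enteropeptidase gene (5 and 0). The adjusted p of each was 0.829, and they were named after their values were seen.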
